A study of Rattus norvegicus with 29 samples.

Results

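The genes described here make cholesterol, sense it, move it and store it. They comprise 36 named genes of cholesterol synthesis and sterol regulation, chosen by exact symbol in the platform's probe-to-gene table and represented by the probe set with the highest mean over all arrays. Of the 36, 34 had a probe set with that symbol alone, and all 34 lay above the filter on dim probe sets. Hmgcs1 and Npc1 had none and were not analysed here. The whole series comprised 31099 probe sets, of which 21729 were tested.

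Expression was measured on Affymetrix rat arrays in the shell of the nucleus accumbens, a ventral striatal region of the reward circuit. The animals were alcohol-preferring (P) rats, a line bred for high voluntary ethanol intake. The groups were rats exposed to ethanol continuously (n = 10), rats with limited access to ethanol (n = 10) and rats given water without ethanol (n = 9), and all shared the P background. The design names 10 control samples, so 1 water sample was not analysed here. The labels state neither the age and sex of the rats nor the hours of access. Nor do they say whether a sample stands for 1 rat or several, and the p-values then cover only the spread among these samples, part of which may be technical.

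The brain makes nearly all of its own cholesterol, because lipoproteins of the blood do not cross the blood-brain barrier. Acetyl-CoA is built into mevalonate and farnesyl diphosphate, then into squalene, which is closed to the first sterol and trimmed to cholesterol. When sterols in the membrane of the endoplasmic reticulum fall, the escort protein Scap carries the transcription factors encoded by Srebf1 and Srebf2 to the Golgi for activation, while Insig1 and Insig2 hold them back. Glia supply much of the cholesterol of neurons, and neurons dispose of the surplus through the hydroxylase Cyp46a1.

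Values are on the log2 scale, as the authors deposited them after RMA. The array medians lay between 8.17 and 8.21, and correlations between arrays over the tested probe sets lay between 0.971 and 0.997. Of 13 markers of medium spiny neurons, the main neurons of the accumbens, 12 lay above the filter, with Penk at a mean of 13.54, Ppp1r1b at 12.53 and Drd1 at 12.14. On the first principal component (20.3% of the variance) water replicates 9 and 7 lay farthest from the centre, at 37.1 and 20.6, against -17.5 to 14.7 for the other arrays. On the second (16.5%) water replicates 2, 5 and 6 and limited replicates 6 and 7 lay at the low end, from -22.2 to -15.6, and continuous replicate 4 at the high end, at 20.2, with the other arrays between -3.3 and 10.9. The spread of the values within an array, as an SD, averaged 2.18 ± 0.01 (SD) with continuous ethanol, 2.17 ± 0.02 with limited access and 2.17 ± 0.02 with water. For beta-actin, the signal at the 3 prime end less that at the 5 prime end averaged 1.27 ± 0.08 with continuous ethanol, 1.17 ± 0.09 with limited access and 1.195 ± 0.05 with water. In tissue RNA, fewer cells of a type and less RNA per cell cannot be told apart.

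Continuous ethanol was set against water to ask which of these genes differed after continuous exposure. In the continuous group 1 of 34 members rose, the mevalonate pathway gene Idi1, none fell and 33 did not pass. Among all tested probe sets 0.152% were called at the same threshold, an adjusted p under 0.05 in limma, 0.0874% higher and 0.0644% lower. The change was above 0 in 28 of the 34 members and below 0 in 6, against 52.5% above and 47.5% below among all tested probe sets. Abca1 is counted among the 28, although its change was below 0 without water replicate 4, as described below. The members were chosen with earlier results of these data known. The members stand on their brightest probe sets, whereas the share over all tested probe sets takes in dimmer ones too. This holds for all 3 comparisons, and a share over the brightest probe set of each gene was not computed. The dimmer probe sets of the members are described below. The median change of the members was 0.06 and that of all tested probe sets 0.0047, both on the log2 scale. At an unadjusted p under 0.05, 7 members were higher and 0 lower, which is 20.6% of them, against 16.1% of all tested probe sets (9.62% higher, 6.48% lower). The mean deviation of the members from their averages lay between -0.02 and 0.09 in the continuous arrays, between -0.04 and 0.03 in the limited arrays and between -0.11 and 0.04 in the water arrays, so the groups overlapped. The median change kept its sign when the arrays were quantile normalized again (0.04) or centred on their medians (0.05). The array medians already lay between 8.17 and 8.21, so centring could move it little. The members vary together to some extent, as described below, so their signs are not independent of each other. The 3 comparisons share groups of arrays, so their values are given side by side and were not correlated with each other.

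**Figure D1:**
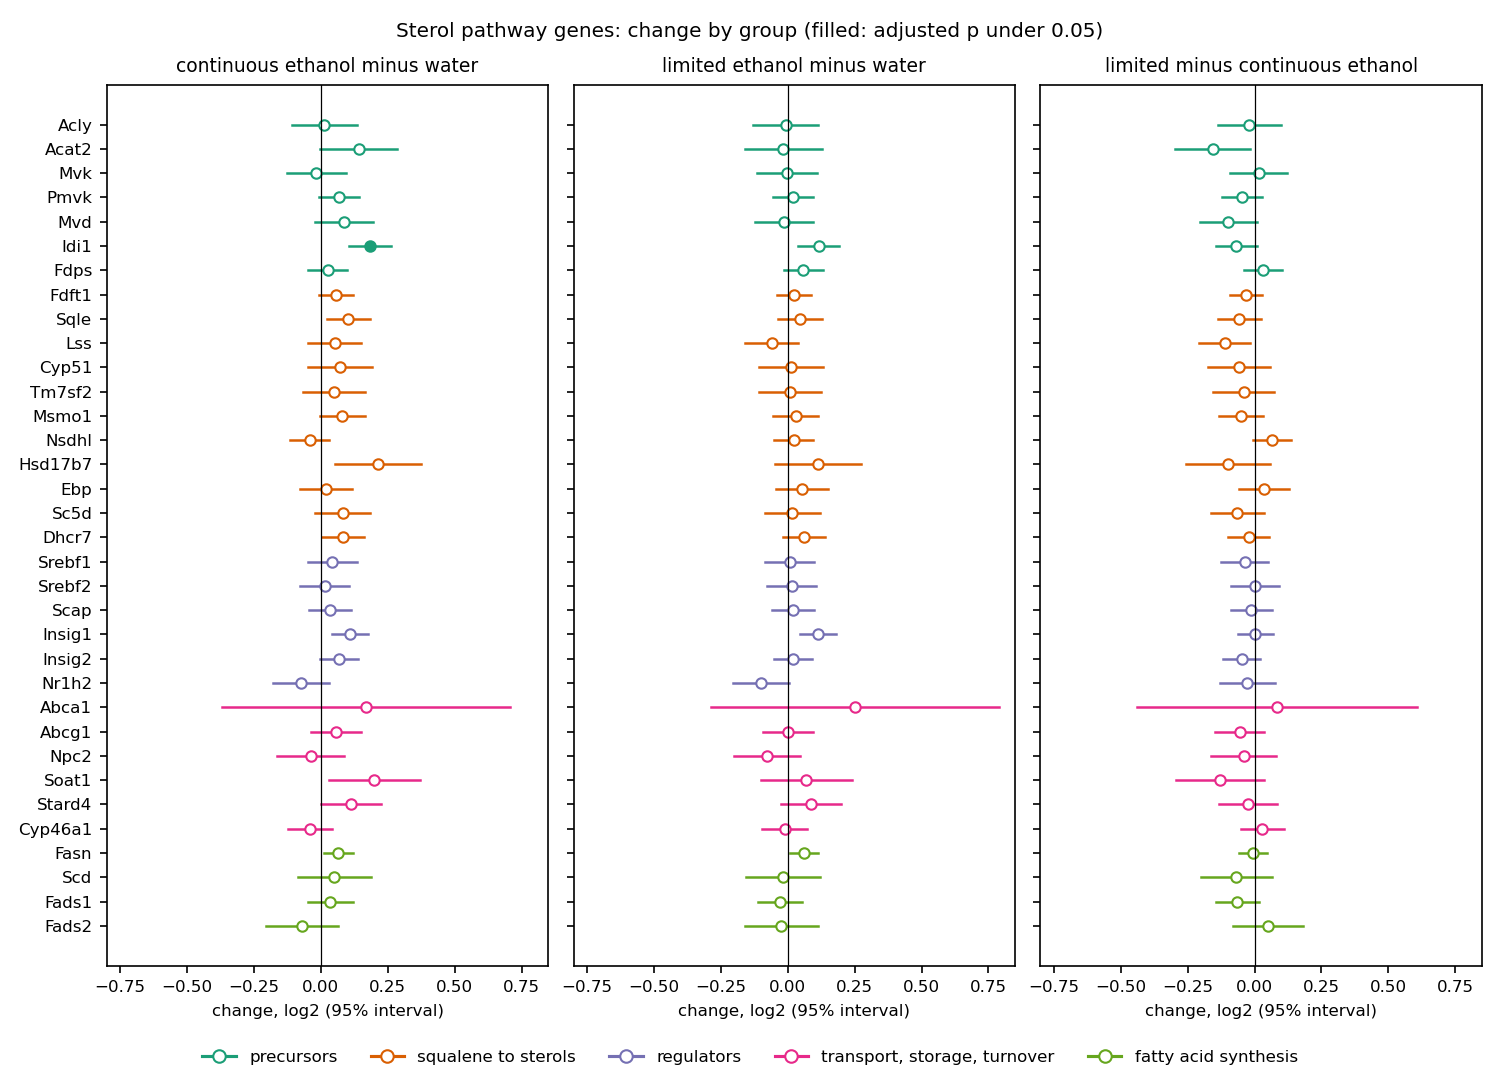
Change of each of the 34 measured genes on the log2 scale (points) with its 95% interval (lines), in 3 comparisons, ordered and coloured by role; a filled point passed an adjusted p under 0.05 in limma. Only Idi1 in the left panel is filled, most points of that panel lie right of 0, and the widest intervals are those of Abca1.

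The enzymes that lead to farnesyl diphosphate comprised 7 measured genes, of which 1 rose and 6 did not pass, with changes from -0.02 to 0.18. Idi1 encodes the isomerase that converts isopentenyl diphosphate to dimethylallyl diphosphate, both of which Fdps joins to farnesyl diphosphate. In the continuous arrays Idi1 lay between 10.83 and 11.15 with a median of 11.04, in the limited arrays between 10.82 and 11.08 with a median of 10.94, and in the water arrays between 10.77 and 10.96 with a median of 10.80. All 10 continuous arrays lay above the water mean and 7 above the highest water array, and the ranges overlapped. Idi1 rose by 0.18 ± 0.04 (SE, limma adjusted p = 0.0302), a 1.14-fold difference. A dimmer Idi1 probe set had a change in the same direction, 0.32 ± 0.09 (adjusted p = 0.144). On it the continuous arrays lay between 9.35 and 9.62 with a median of 9.53, and the water arrays between 8.73 and 9.43 with a median of 9.31. All 10 continuous arrays lay above the water mean. That mean, 9.17, lay below the water median, so the medians differed by less than the means. The limited arrays lay between 8.78 and 9.49 on this probe set, all 10 below the continuous mean (difference -0.20 ± 0.09, adjusted p = 0.529).

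The call of Idi1 lay near the threshold. It was lost with that within-array SD as a covariate (change 0.16, adjusted p = 0.331), without the 5 arrays at the low end of the second component (0.17, adjusted p = 0.204), without water replicates 7 and 9 and continuous replicate 4 (0.17, adjusted p = 0.173, a setting chosen after seeing the data) and without any 1 of continuous replicates 4, 6, 8, 9 and 10 or water replicates 2, 5, 7 and 9 (0.17 to 0.18, adjusted p from 0.0522 to 0.0709). Array weights (0.16, adjusted p = 0.0988) and the 3 prime less 5 prime signal as a covariate (0.18, adjusted p = 0.0684) also lost it. So did a fit of only the 2 groups compared (0.18, adjusted p = 0.0648) and the mean of both Idi1 probe sets (0.25, adjusted p = 0.0547).

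The other precursor enzymes had smaller changes relative to their error. Acat2, a cytosolic thiolase that joins acetyl-CoA units, changed by 0.14 ± 0.07 (adjusted p = 0.318) and Mvd, the decarboxylase that makes isopentenyl diphosphate, by 0.09 ± 0.05 (adjusted p = 0.426). Pmvk, which phosphorylates phosphomevalonate, changed by 0.07. Fdps, Acly, which makes cytosolic acetyl-CoA from citrate, and Mvk, which phosphorylates mevalonate, changed by 0.03, 0.01 and -0.02.

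Of the 11 enzymes from squalene to cholesterol, 0 passed and 10 had changes above 0, with a median of 0.07 and a range from -0.04 to 0.21. Hsd17b7, a ketosteroid reductase that takes part in removing methyl groups from early sterols, lay between 8.57 and 9.13 in the continuous arrays with a median of 8.90, and between 8.21 and 8.94 in the water arrays with a median of 8.75. Its change was 0.21 ± 0.08 (adjusted p = 0.206), and 9 of 10 continuous arrays lay above the water mean. Without the 5 arrays at the low end of the second component the change was 0.11 ± 0.07 (adjusted p = 0.623). On a dimmer Hsd17b7 probe set the change was 0.12 ± 0.11 (adjusted p = 0.597), and within groups it did not follow the brightest one (r = -0.09). Sqle, the squalene epoxidase, which catalyses a slow step of the pathway, lay between 10.23 and 10.50 in the continuous arrays with a median of 10.34, and between 10.14 and 10.39 in the water arrays with a median of 10.25. Its change was 0.10 ± 0.04 (adjusted p = 0.216), with 9 of 10 continuous arrays above the water mean.

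The remaining enzymes of this stretch had changes between -0.04 and 0.08. Dhcr7, which reduces the last double bond in one branch of the pathway, changed by 0.08 (adjusted p = 0.283), and the methylsterol oxidase Msmo1 and the desaturase Sc5d by 0.08 each. Cyp51, the lanosterol demethylase, changed by 0.07, the squalene synthase Fdft1 by 0.06, the lanosterol synthase Lss by 0.05, the sterol reductase Tm7sf2 by 0.05 and the sterol isomerase Ebp by 0.02. Nsdhl, a dehydrogenase of the same demethylation as Hsd17b7, was the exception with a change of -0.04.

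Among the 6 regulators 0 passed, with changes from -0.07 to 0.11. Insig1 is itself a transcriptional target of the factors it restrains. It lay between 10.77 and 11.00 in the continuous arrays with a median of 10.83, between 10.77 and 10.94 in the limited arrays with a median of 10.88, and between 10.64 and 10.85 in the water arrays with a median of 10.76. All 10 continuous and all 10 limited arrays lay above the water mean, and both ranges overlapped that of water. The change was 0.11 ± 0.03 with continuous ethanol (adjusted p = 0.153) and 0.11 ± 0.03 with limited access (adjusted p = 0.971). The unadjusted p-values were 0.00234 and 0.00182, and the adjusted values differ because few probe sets had small p-values with limited access. Insig2 changed by 0.07, and Srebf1, Scap and Srebf2 by 0.04, 0.03 and 0.01 with continuous ethanol. Nr1h2, the oxysterol receptor LXR-beta, changed by -0.07 ± 0.05 (adjusted p = 0.474).

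**Figure D2:**
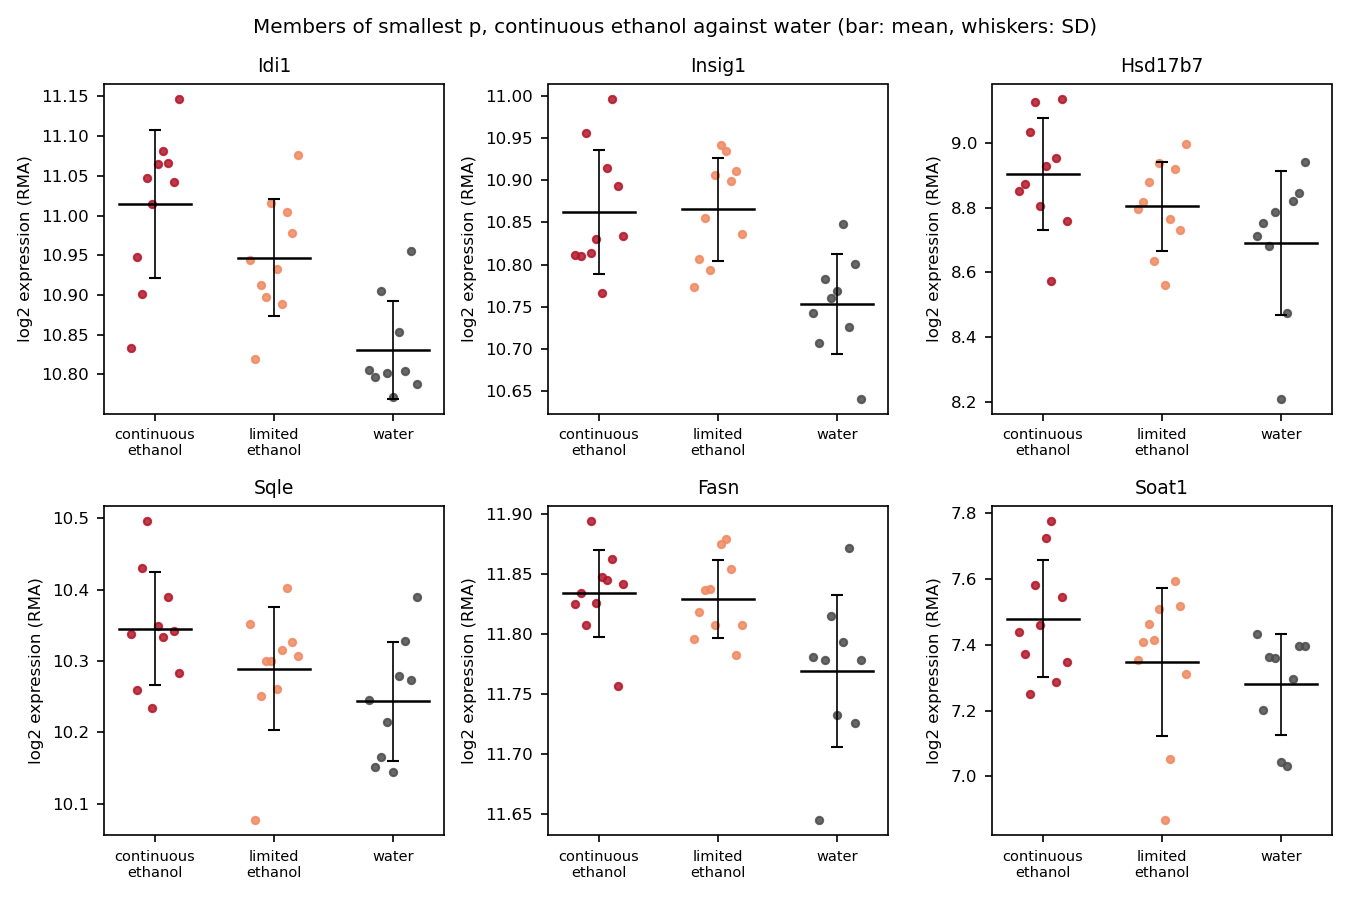
Log2 expression (RMA) of the 6 genes of smallest p in the comparison of continuous ethanol with water, 1 point per array, with the group mean (bar) and SD (whiskers). The continuous arrays of Idi1 and Insig1 all lie above the water mean (10.83 and 10.75), and the groups overlap in every panel.

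Of 6 measured genes of transport, storage and turnover, 0 passed. Soat1, which esterifies cholesterol for storage, lay between 7.25 and 7.78 in the continuous arrays with a median of 7.45, and between 7.03 and 7.43 in the water arrays with a median of 7.36. Its change was 0.20 ± 0.08 (adjusted p = 0.243), with 9 of 10 continuous arrays above the water mean. A second Soat1 probe set, below the filter and therefore not tested, differed by -0.15, and the mean of both differed by 0.02. Without the same 5 arrays the change of Soat1 was 0.10 ± 0.06 (adjusted p = 0.602), and with the within-array SD as a covariate 0.09 ± 0.08 (adjusted p = 0.940). Stard4, a cytosolic sterol carrier, changed by 0.11 (adjusted p = 0.314), the sterol exporter Abcg1 by 0.06, the lysosomal cholesterol-binding protein gene Npc2 by -0.04 and Cyp46a1 by -0.04.

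Abca1, which exports cholesterol to apolipoproteins, had the widest spread of all members, with a within-group SD of 0.629 against a median of 0.10 over the members. It lay between 10.30 and 11.22 in the continuous arrays with a median of 11.07, between 10.27 and 11.22 in the limited arrays with a median of 11.04, and between 8.16 and 11.29 in the water arrays with a median of 11.09. The low value was that of water replicate 4. The other 8 water arrays lay between 10.40 and 11.29. On the second Abca1 probe set water replicate 4 had 7.93, against 8.71 to 9.38 in the other water arrays, and on the third 8.27, against 8.36 to 8.71. On the remaining probe set, below the filter and not tested, it had 5.83, within the 5.39 to 6.02 of the other water arrays. The change was 0.17 ± 0.26 with continuous ethanol (adjusted p = 0.779) and 0.25 ± 0.26 with limited access (adjusted p = 0.972). Without water replicate 4 the differences were -0.15 ± 0.14 (adjusted p = 0.564) and -0.07 ± 0.14 (adjusted p = 0.941), an alternative chosen after seeing the data.

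**Figure D3:**
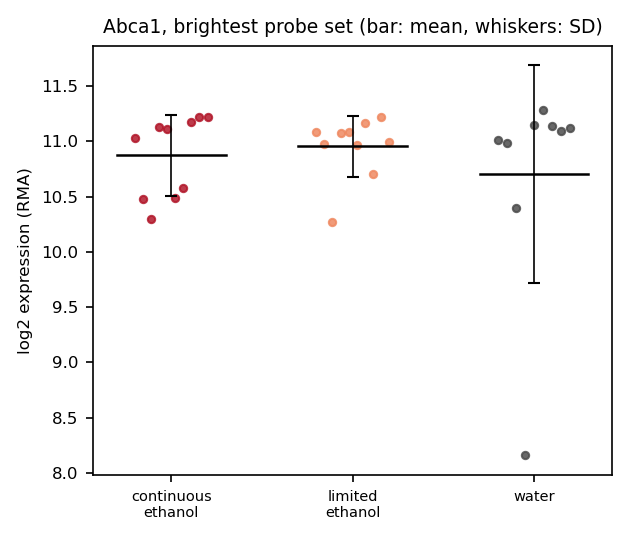
Log2 expression (RMA) of Abca1 on its brightest probe set, 1 point per array, with the group mean (bar) and SD (whiskers). Water replicate 4 at 8.16 lies below all other arrays, and the medians of the groups differ little (11.07, 11.04 and 11.09).

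Of the 4 genes of fatty acid synthesis and desaturation, which the same transcription factors control, 0 passed. Fasn, the fatty acid synthase, lay between 11.76 and 11.89 in the continuous arrays with a median of 11.84, between 11.78 and 11.88 in the limited arrays with a median of 11.83, and between 11.64 and 11.87 in the water arrays with a median of 11.78. Its change was 0.06 ± 0.03 with continuous ethanol (adjusted p = 0.226), where 9 of 10 arrays exceeded the water mean, and 0.06 ± 0.03 with limited access (adjusted p = 0.972), with 10 of 10. A dimmer Fasn probe set changed by -0.05 with continuous ethanol, and the mean of both by 0.0076. Without the 5 arrays at the low end of the second component Fasn differed by 0.04 with continuous ethanol and 0.026 with limited access. The desaturase genes Scd, Fads1 and Fads2 changed by 0.05, 0.04 and -0.07.

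The probe sets of a gene did not always move together. Of 15 members with more than 1 tested probe set, 7 had changes of the same sign on all of them in the comparison of continuous ethanol with water, and 8 did not. On the brightest probe sets of these 15 genes 13 changes were above 0, with a median of 0.06. On their 19 dimmer ones 11 were above 0 and 8 below, with a median of 0.020 and 0 called. At an unadjusted p under 0.05, 1 dimmer probe set was higher, that of Idi1, and 4 were lower. The 4 lower ones belonged to Scap (-0.16 ± 0.05, adjusted p = 0.136), Lss (-0.17 ± 0.06, adjusted p = 0.204), Stard4 (-0.10 ± 0.04, adjusted p = 0.234) and Sc5d (-0.07 ± 0.03, adjusted p = 0.256). Averaging all probe sets of each gene, in place of taking the brightest, gave a median change of 0.03 over the members, against 0.06. These averages took in all 58 probe sets of the members, of which 53 were tested and the others lay below the filter. Across the 29 arrays, within groups, the probe sets of Insig2 (r = 0.70) and Srebf1 (r = 0.67) went together more closely than those of Idi1 (r = 0.29) or Lss (r = -0.19). Correlations were also negative for Hsd17b7 (r = -0.09), Cyp51 (-0.06) and Abcg1 (-0.15 to -0.04). For Sc5d (-0.54 to 0.75) and Stard4 (-0.03 to 0.47) the signs were mixed, and the remaining genes had positive values.

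**Figure D4:**
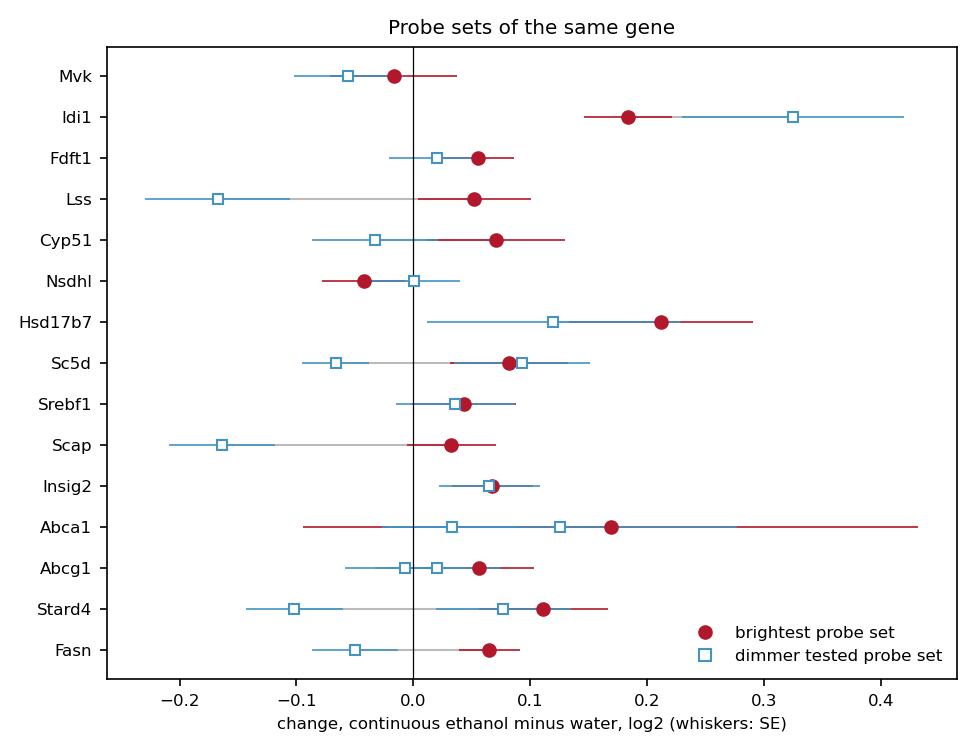
Change between continuous ethanol and water on the log2 scale (whiskers, SE) for each tested probe set of the 15 genes that had more than 1; filled circles are the brightest probe set, open squares the dimmer ones. Both Idi1 probe sets lie right of 0 (0.18 and 0.32), while those of Scap, Lss, Stard4, Sc5d and Fasn lie on both sides of it.

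The same question was put to the rats with limited access, again against water. Of the 34 members 0 rose and 0 fell, and 0% of all tested probe sets were called. The change was above 0 in 23 members and below 0 in 11, with a median of 0.018, and among all tested probe sets 50.5% had changes above 0 and 49.5% below. Abca1 is counted among the 23, although it differed by -0.07 without water replicate 4. By role, 10 of 11 enzymes from squalene to cholesterol were above 0 (median 0.023), as were 3 of 7 precursor enzymes (-0.0021), 5 of 6 regulators (0.017), 4 of 6 genes of transport, storage and turnover (0.03) and 1 of 4 fatty acid genes (-0.020). At an unadjusted p under 0.05 in limma 3 members were higher, Insig1, Idi1 and Fasn, and 0 lower, which is 8.82% of the members against 4.44% of all tested probe sets (2.1% higher, 2.34% lower). Idi1 differed by 0.12 ± 0.04 (adjusted p = 0.972), with 9 of 10 limited arrays above the water mean and 4 above the highest water array. Nr1h2 lay between 9.05 and 9.36 in the limited arrays with a median of 9.16, and between 9.15 and 9.48 in the water arrays with a median of 9.28. Its difference was -0.10 ± 0.05 (adjusted p = 0.972), with 7 of 10 limited arrays below the water mean. With the astrocyte marker mean as a covariate it was -0.06. With the mean of both Nr1h2 probe sets, the dimmer of them below the filter and not tested, it was 3.9e-04. The differences of Fdps (0.06 ± 0.04) and Dhcr7 (0.06 ± 0.04) had the same adjusted p, and were 0.027 and 0.04 without the 5 arrays at the low end of the second component. The median over the members was 0.04 without water replicates 7 and 9 and continuous replicate 4. Beside these values, astrocyte markers were below 0 with limited access in 10 of 10 (median -0.06), leptomeningeal markers in 12 of 12 and endothelial and mural markers in 9 of 10, of which 0 passed, and their part in the member values was not tested except for the covariates named. The largest upper 95% bound of any member other than Abca1 was 0.27, for Hsd17b7, and the lowest lower bound was -0.21, for Nr1h2.

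Limited access was then set against continuous ethanol, which asks whether the schedules differed from each other. Of the 34 members 0 passed, and among all tested probe sets 0.0046% were higher and 0% lower. The difference was below 0 in 25 members and above 0 in 9, with a median of -0.04, and among all tested probe sets 46.6% had differences above 0 and 53.4% below. Of the 18 synthesis enzymes 14 were below 0, with a median of -0.05. At an unadjusted p under 0.05, 2 members were lower with limited access, Lss and Acat2, which is 5.88% of the members against 9.31% of all tested probe sets (3.56% higher, 5.74% lower).

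Lss lay between 8.64 and 8.95 in the limited arrays with a median of 8.81, and between 8.72 and 9.06 in the continuous arrays with a median of 8.91. The difference was -0.11 ± 0.05 (adjusted p = 0.526), and the mean of both Lss probe sets differed by 0.0061. Acat2 lay between 9.30 and 9.89 in the limited arrays with a median of 9.76, and between 9.67 and 9.97 in the continuous arrays with a median of 9.82, a difference of -0.16 ± 0.07 (adjusted p = 0.527). The limited arrays of Acat2 were the more spread (SD 0.218, against 0.0783 in the continuous arrays), with replicates 7, 6 and 10 lowest at 9.30, 9.36 and 9.43 and the other 7 at 9.71 or above. The difference was -0.07 ± 0.05 without the 5 arrays at the low end of the second component and -0.06 ± 0.05 with array weights (adjusted p = 1 and 0.773). Mvd differed by -0.10 ± 0.05, Nsdhl by 0.07 ± 0.03, Idi1 by -0.07 ± 0.04 and the desaturase gene Fads1 by -0.06 ± 0.04 (adjusted p = 0.550, 0.552, 0.558 and 0.609). With the 3 prime to 5 prime covariate Mvd differed by -0.026 and Fads1 by -0.015, and Fads1 by -0.04 without continuous replicate 7. Nsdhl differed by 0.04 without the 5 arrays.

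Insig1 differed by 0.0032 between the schedules, with a 95% interval from -0.06 to 0.07. The group mean of limited access lay between those of the continuous and water groups in 20 of 34 members. The continuous mean was the highest in 17 of these and the lowest in 3. The same share over all tested probe sets was not computed, so this order cannot be called particular to the members. A test over the 3 groups with the moderated F statistic called 0 members, and the lowest adjusted p was 0.112, for Idi1. Of the members 5 had an unadjusted p under 0.05. It called 0.0828% of all tested probe sets, and 11.6% had an unadjusted p under 0.05.

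Of 33 further genes of the pathway, 27 had a tested probe set, and 0 passed in any of the 3 comparisons. With continuous ethanol 13 had changes above 0 and 14 below, with a median of -0.0079. Against 16.1% of all tested probe sets, 4 of these genes (14.8%) had an unadjusted p under 0.05, 2 higher and 2 lower. These were Rnf139, a ubiquitin ligase of the endoplasmic reticulum (0.20, adjusted p = 0.181), Mylip, a ligase that degrades lipoprotein receptors (0.16, adjusted p = 0.197), the lipoprotein receptor gene Lrp1 (-0.09, adjusted p = 0.216) and the fatty acid elongase gene Elovl5 (-0.11, adjusted p = 0.245). With limited access against water the median was -0.03, and Mylip differed by 0.12 (adjusted p = 0.972). Between limited and continuous ethanol the median was 0.0094, and Rnf139 differed by -0.15 (adjusted p = 0.526).

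Cholesterol genes are expressed strongly by oligodendrocytes and astrocytes, so markers of these cells were read on the same arrays. Of 10 tested oligodendrocyte markers 0 passed with continuous ethanol, 4 were above 0 and 6 below. Their mean deviation lay between -0.14 and 0.14 with continuous ethanol, -0.12 and 0.18 with limited access and -0.17 and 0.16 with water. Of 10 astrocyte markers 0 passed, 2 were above 0 and 8 below, and their mean deviation lay between -0.13 and 0.26 with continuous ethanol, -0.10 and 0.03 with limited access and -0.06 and 0.14 with water. With the oligodendrocyte or astrocyte mean as a covariate, Idi1 rose by 0.18 (adjusted p = 0.0322) and 0.19 (adjusted p = 0.0421). The median change of the members was 0.06 in both fits. The oligodendrocyte mean differed little between the groups (0.0076 with continuous ethanol, -0.0093 with water), so that covariate could move the changes little.

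Leptomeningeal markers had changes below 0 with continuous ethanol in 12 of 12 (0 passed), with means of -0.10 ± 0.56 (SD) in the continuous and 0.19 ± 0.36 in the water arrays. Idi1 rose by 0.20 (adjusted p = 0.0263) with them as a covariate. Endothelial and mural markers had changes below 0 in 9 of 10 (0 passed), with means of -0.04 ± 0.10 in the continuous and 0.06 ± 0.11 in the water arrays, and their part in the result was not tested. The same holds for medium spiny neuron markers, below 0 in 11 of 12, microglial markers, below 0 in 7 of 9, and cortical projection neuron markers, above 0 in 4 of 5, of which 0 passed.

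The members were also set against each other across the 29 arrays, after the group means were taken off. Pearson correlations of all 561 pairs had a median of 0.09, against 0.013 for the pairs of all 11328 tested genes, and 4.28% of member pairs lay above 0.5, against 4.30% of all pairs. Among the 153 pairs of the 18 synthesis enzymes the median was 0.20 and 9.15% lay above 0.5. Within the roles the median was 0.25 for the precursor enzymes, 0.09 for the enzymes from squalene to cholesterol (3.64% above 0.5), -0.08 for the regulators, -0.17 for transport, storage and turnover and 0.22 for the fatty acid genes. These values are a description, because all genes share the same arrays and their normalization. Tm7sf2 and Msmo1 were the most alike pair (r = 0.76), and Mvk had the highest median correlation with the other members (0.28), including 0.67 with Hsd17b7, 0.64 with Sqle and 0.64 with Lss. Each gene stands here on its brightest probe set alone. Tested probe sets of the same gene correlated at only 0.25 for Mvk, -0.09 for Hsd17b7 and -0.19 for Lss. The Mvk values include water replicate 5, which lay low at 8.32 (next 8.66). Mvk itself changed by -0.02 with continuous ethanol. The most opposed pair was Abcg1 and Scd (r = -0.78), and the lowest median correlations with the other members were those of Abcg1 (-0.18) and Cyp51 (-0.11). These values too belong to the brightest probe sets. The probe sets of Abcg1 correlated with each other between -0.15 and -0.04, and those of Cyp51 at -0.06. Idi1 had a median of 0.12 and Insig1 of -0.0056.

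**Figure D5:**
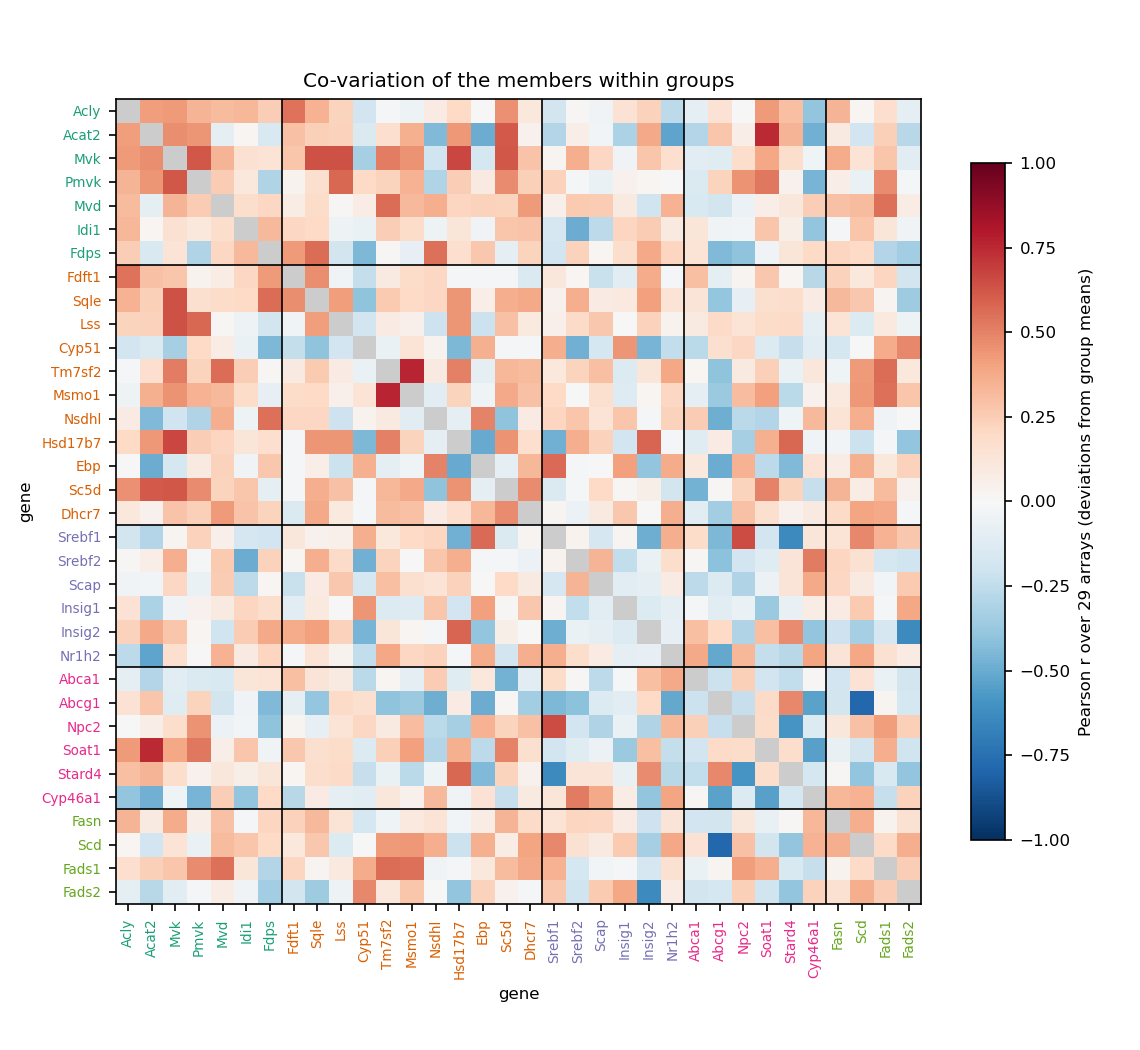
Pearson correlation between members over 29 arrays after subtraction of group means, with genes ordered by role and black lines between roles (gene names coloured as in the plot of changes). Each gene stands on its brightest probe set alone. The upper left blocks together, precursors and sterol enzymes, have a median of 0.20 over 153 pairs, the sterol enzymes among themselves one of 0.09, and Abcg1 and Cyp51 have the lowest medians over all other members (-0.18 and -0.11).

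Promoter sequences bear on these genes because the sterol-responsive transcription factors bind beside NF-Y, a factor that recognises CCAAT. Of the 34 measured members, 28 had a promoter in the RefSeq table of build GRCr8, which spans 250 bases before to 50 bases after the annotated start. The letters CCAAT, searched on both strands, occurred in the promoters of 20 of the 28 members (71.4%) and of 12 of 15 synthesis enzymes, against 37.5% of all 33469 promoters and 38.6% of 9409 tested genes. The E-box CACGTG occurred in 4 of 28 members (14.3%), those of Sc5d, Scap, Insig1 and Abca1, against 6.42% of all promoters and 10.1% of tested genes. A sterol regulatory element written as TCACNCCAC occurred in 0 of 28, against 1.12% of all promoters, which says only that these letters are not in these windows. The motifs do not overlap each other in the members. A match is a description of sequence, not a bound site.

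The stretches that hold these matches upstream of the start are shown for the members of smallest p with continuous ethanol that had an entry, and for Mvk and Nsdhl, which had 5 CCAAT matches each. Capitals mark CCAAT on the strand of the gene, ATTGG where it lies on the opposite strand, and CACGTG. All are written 5′ to 3′ on the strand of the gene. The Idi1 stretch lies at chr17:66547540-66547605, minus strand, with matches that begin at -66 and -35 from the start. That of Insig1 lies at chr4:8057828-8057977, minus strand, Hsd17b7 at chr13:84722760-84722945, minus strand, and Soat1 at chr13:71147782-71147816, minus strand. Mvk lies at chr12:47819504-47819691, minus strand, and Nsdhl at chrX:155817137-155817314, plus strand.
Idi1: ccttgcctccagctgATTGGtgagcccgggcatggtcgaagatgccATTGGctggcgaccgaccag
Insig1: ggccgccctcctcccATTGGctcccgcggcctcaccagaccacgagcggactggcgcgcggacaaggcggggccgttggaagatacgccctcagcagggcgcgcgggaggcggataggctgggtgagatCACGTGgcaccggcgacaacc
Hsd17b7: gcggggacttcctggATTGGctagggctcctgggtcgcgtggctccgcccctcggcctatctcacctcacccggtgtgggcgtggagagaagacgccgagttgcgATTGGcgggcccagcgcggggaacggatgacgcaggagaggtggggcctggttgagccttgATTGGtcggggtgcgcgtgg
Soat1: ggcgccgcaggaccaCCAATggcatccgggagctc
Mvk: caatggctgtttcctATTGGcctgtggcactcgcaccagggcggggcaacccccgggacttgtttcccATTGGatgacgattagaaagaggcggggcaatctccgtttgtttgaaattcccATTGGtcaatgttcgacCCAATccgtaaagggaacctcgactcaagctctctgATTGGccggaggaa
Nsdhl: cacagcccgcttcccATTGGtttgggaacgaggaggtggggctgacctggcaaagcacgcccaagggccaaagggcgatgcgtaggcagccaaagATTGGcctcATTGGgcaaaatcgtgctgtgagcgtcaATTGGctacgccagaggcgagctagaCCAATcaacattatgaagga

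Of the 20 members that hold CCAAT, 16 had changes above 0 with continuous ethanol and 4 below, with a median of 0.05 and a range from -0.04 to 0.21. Of the 8 that do not, 6 were above 0 and 2 below, with a median of 0.06 and a range from -0.07 to 0.17. The value of 0.17 was that of Abca1, which differed by -0.15 without water replicate 4. The counts and medians of these small lists therefore depend on single genes and arrays. Mvk and Nsdhl, with 5 matches each, changed by -0.02 and -0.04. Sqle and Fasn had no entry in the table.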

How the data were processed

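Gene expression was measured in 29 samples. The authors deposited log2 expression values made with RMA, per the submitters' processing notes, which name no version. The log2 scale was taken from their range (4.04 to 16.04). RMA makes array distributions nearly equal, so a shift common to most transcripts would be removed. Members and lists were chosen with earlier results of these data known.

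The 57 control probe sets and the dimmest 30% (mean up to 6.86) were left out. Symbols came from the platform table, with 20832 probe sets having 1 symbol, 436 several and 9831 none. All 29 arrays entered 1 fit with group as its only factor (lmFit and eBayes, limma 3.58.1 in R 4.3.3), and two-sided p-values were adjusted by Benjamini-Hochberg over 21729 probe sets. Changes are differences of group means. In each comparison the members past the threshold and those of smallest p up to 6 got values by array. The number of arrays limits the precision. On simulated data for continuous ethanol against water with 21729 probe sets, the fit recovered 58.2% of changes of 0.2, 88.1% of 0.4 and 98.5% of 0.8. It made 11 false calls. The simulated probe sets varied independently of each other, unlike those of these arrays, and included changes planted up to 0.8. The shares recovered are therefore not the power of the fit on these data. Alternatives covered filters, normalization, prior, array weights, replicate block (statmod 1.5.0), covariates and left-out arrays.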

Additional observations from a re-analysis of the deposited data

Results flagged for a closer look

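Each group of each of the 34 measured members was checked for an array far from the others, 102 groups in all, of which 11 had one; chance flags about 1 in 20 groups. Abca1 in water replicate 4 was 8.16, against 10.40 in the next lowest water array. The other low arrays were water replicate 5 for Mvk (8.32, next 8.66), water replicate 6 for Scap (10.17, next 10.36), water replicate 9 for Cyp51 (11.35, next 11.66), limited replicate 2 for Sqle (10.08, next 10.25) and limited replicate 6 for Pmvk (10.30, next 10.45). The high arrays were continuous replicate 7 for Ebp (8.97, next 8.75), limited replicate 10 for Tm7sf2 (9.12, next 8.98) and limited replicate 6 for Cyp46a1 (12.17, next 11.96), Scd (8.93, next 8.58) and Fads2 (8.59, next 8.32). Limited replicate 6, which stood at an end for 4 members, is also 1 of the 5 arrays at the low end of the second principal component.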

How the results depend on the processing

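The count of members called with continuous ethanol against water was 1 in the reported fit, and 0 with array weights, the 3 prime to 5 prime covariate, the array SD as a covariate, when the 5 arrays at the low end of the second component were left out and with only the 2 groups compared; it was 1 under the other 10 alternatives, the replicate block included (Idi1 0.18, adjusted p = 0.0216). It was also 0 without water replicates 7 and 9 and continuous replicate 4, a setting added after seeing the data. Leaving out each array in turn gave 0 to 1. The call of Idi1 was also lost with the mean of its probe sets (change 0.25, adjusted p = 0.0547), and its change lay between 0.16 and 0.25 over 16 alternatives, that one included. No member was called in the other 2 comparisons under any alternative or left-out array, and the F test called 0 to 1 when each array was left out, 1 only without continuous replicate 1. The median change of the members lay between 0.03 and 0.07 with continuous ethanol, 0.0065 and 0.026 with limited access and -0.04 and -0.015 between the schedules under those alternatives, and was 0.07, 0.04 and -0.03 under the added setting. With the mean of all probe sets the difference of Nr1h2 with limited access was 3.9e-04 and that of Lss between the schedules 0.0061, both of the opposite sign. The second Nr1h2 probe set lay below the filter (mean 5.12) and was not tested. Abca1 without water replicate 4 differed by -0.15 with continuous ethanol and -0.067 with limited access, both of the opposite sign. Over all probe sets the 33 calls with continuous ethanol were 55 with the replicate block, 54 with the oligodendrocyte covariate, 20 with 1 probe set per gene, 14 under the added setting, 12 without the 5 arrays and 11 with the array SD, and 18, 59, 66 and 94 without water replicates 5 and 8, limited replicate 6 and water replicate 4. The block changed no call of a member. The deviations of 28 same-numbered pairs of arrays correlated between -0.24 and 0.34, with 12 over 0.1. The 3 pairs of replicate 3 had 0.33, 0.33 and 0.28. Differently numbered pairs were not set beside them, so whether the labels' numbers pair the samples cannot be told from these values. The causes were not tested.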
